A study of Homo sapiens with 2 samples.

Results

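The genes described here encode Mediator, Integrator, the RNA exosome and factors that act on elongating RNA polymerase II. They were taken by symbol: MED, INTS, EXOSC and SUPT followed by a digit, ELL and its numbered relatives, AFF1, AFF4, the NELF subunits, ELOF1, HEXIM1 and LARP7. Of the 14884 genes that the array annotation names, 66 matched. They are 63 protein-coding genes and 3 other transcripts whose symbols fit the pattern, the pseudogenes INTS4P2 and MED15P9 and the antisense RNA MED4-AS1. A further 12 genes of these complexes are unnamed here (MED6, MED25, INTS2, INTS13, INTS14, INTS15, SUPT20H, ELL2, AFF1, AFF4, NELFE and LARP7).

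The groups were A549 cells stretched for 4 h and A549 cells in static culture for 4 h, with 1 Affymetrix array each and no other treatment in the labels. A549 is an established human lung adenocarcinoma line. One title writes the line's digits in another order, and the assignment therefore rests on the source names, which both give A549. The series title links stretch to invasion through tumour necrosis factor alpha, and how the cells were stretched was not given in the sources used here.

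These complexes follow RNA polymerase II from the promoter to the end of the transcript. Mediator carries signals from DNA-bound factors to the polymerase, and NELF and DSIF hold the polymerase paused shortly after it starts until the kinase P-TEFb releases it. Integrator cuts the nascent RNA of many paused polymerases and the ends of small nuclear RNAs, and the RNA exosome degrades or trims RNAs from their 3′ end.

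Signals are log2 RMA values, so a difference of 1 is a 2-fold difference, and each difference is stretch minus static. With 1 array per condition there is no replicate, no error and no test for any value, and differences between arrays, cultures and conditions cannot be told apart. The number of arrays limits the precision. Genes were counted at 1.5-fold or more and at 2-fold or more. A gene passed the level filter when the higher of its 2 values reached 2.52, the median of all values. Of the 66 genes, 63 passed it; MED18, MED27 and MED4-AS1 did not. Signals up to 4.37, the 95th percentile of 14 genes of unrelated tissues, are called the background range below. Differences of those 14 genes lay between -1.16 and 0.63, and 5 of them were past 1.5-fold in size. Of 6 measured epithelial markers 5 were above the background range on each array, with KRT18 at 11.0 on the stretched and 10.29 on the static array, and KRT19 was not. The endothelial PECAM1, VWF and KDR and the fibroblast DCN and LUM lay in that range on both arrays. Among leukocyte genes LYZ did too, whereas CD14 and CD68 did not.

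Of the 66 genes, 24 were 1.5-fold or more higher on the stretched array, 2 were 1.5-fold or more lower and 40 lay between. At 2-fold, 7 were higher and 0 were lower. The 24 make up 36.4% of the 66, against 20.7% of all 14884 named genes, and 38.1% of the 63 genes past the level filter. Among the 10981 named genes past the level filter, 27.7% were 1.5-fold or more higher and 8.9% lower, and 12.3% were 2-fold or more higher and 2.5% lower. The median difference of the 63 genes past the level filter was 0.32, and that of the 10981 genes was 0.20. That gap was smaller among genes with a higher signal. Among named genes with a value at or above 4.24, the upper quartile of all values, 38.9% were 1.5-fold or more higher with a median of 0.41, and the 55 genes of these complexes past the same mark had 24 higher (43.6%) and a median of 0.42. At 2-fold 7 of the 55 were higher, against 18.3% of all named genes past that mark. A gene passes this mark through the larger of its 2 values, so the mark favours large differences. This holds for all named genes too. ELOF1, EXOSC7, INTS9 and MED28 reached the mark on the stretched array only, and all of them count as higher. The median difference was 0.795 for the exosome (range 0.28 to 1.68), 0.55 for Integrator (-0.24 to 0.96), 0.40 for the elongation and SAGA genes (-0.73 to 2.95) and 0.195 for Mediator (-0.61 to 1.32). These ranges overlap, and differences between the complexes were not tested. Since bulk RNA was measured, a change in the share of cells that express a gene and a change in RNA per cell cannot be told apart.

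**Figure D1:**
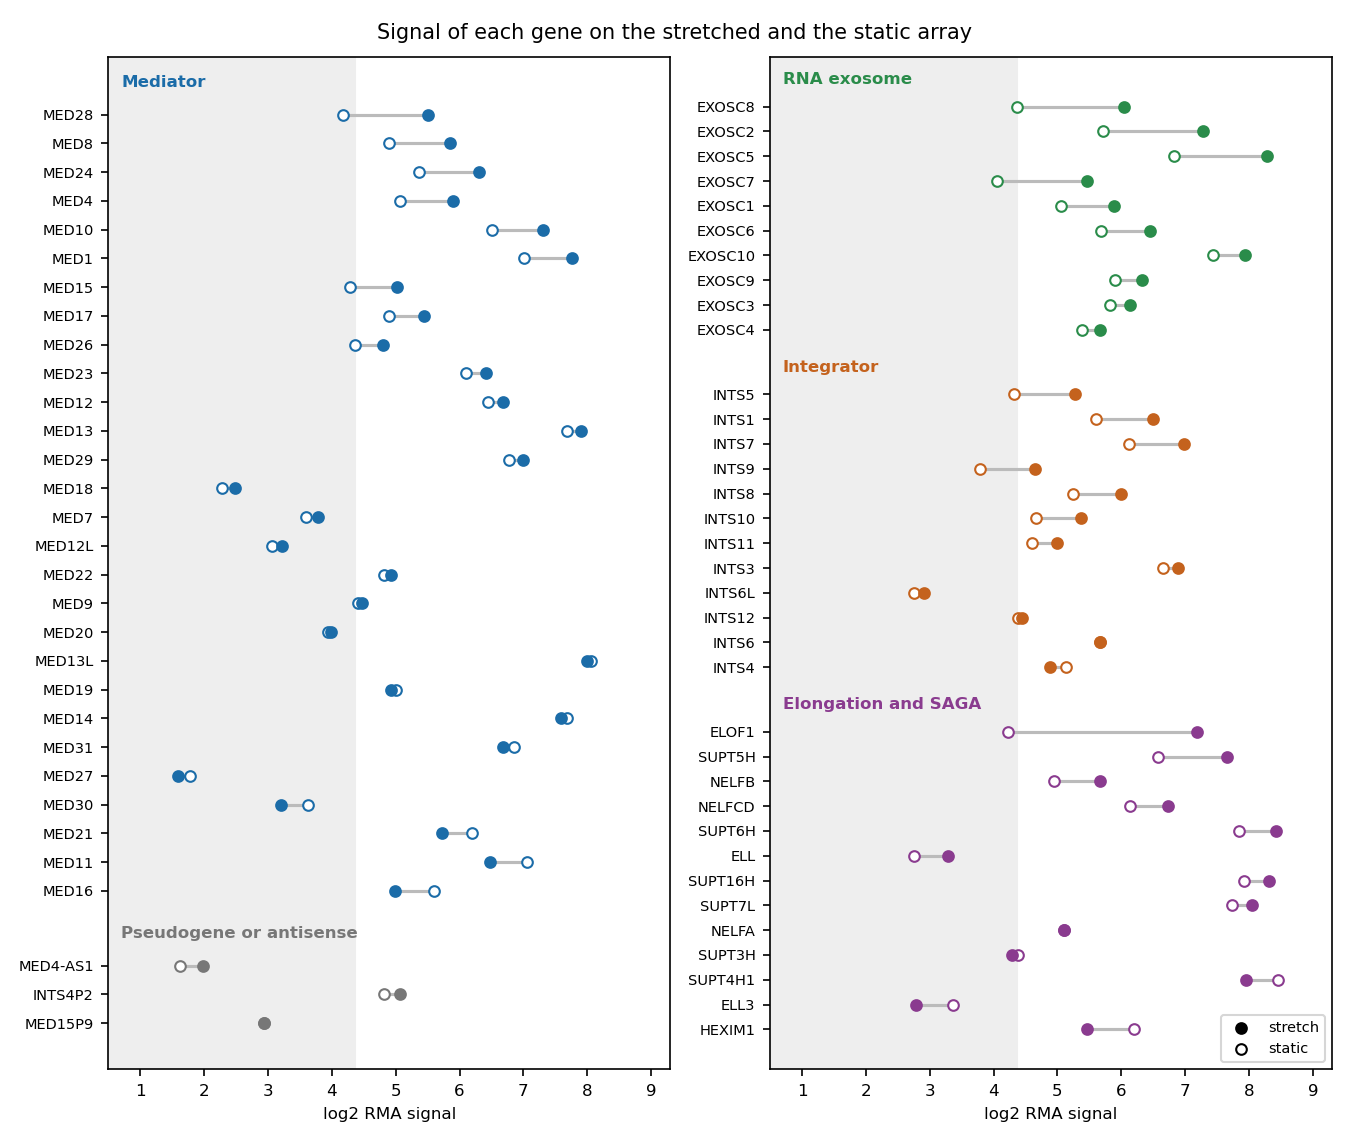
Each row is 1 gene, with its log2 RMA signal (x axis) on the stretched array as a filled point and on the static array as an open point; grey shading marks the background range up to 4.37, and genes run from the highest to the lowest difference within each complex. As deposited, all 10 exosome genes have the filled point on the right, whereas Mediator genes have it on either side. Of the 10981 named genes past the level filter, 6953 were higher on the stretched array.

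ELOF1 had the largest difference of the 66 genes. It encodes a small, conserved protein that binds the elongating polymerase and takes part in transcription-coupled DNA repair. Its signal was 7.18 on the stretched array and 4.23 on the static array, a difference of 2.95 or 7.73-fold. The static value lay within the background range, where signals are compressed, so the size of the fold is not firm, and 1 probe set represents the gene. Under 4 other scalings of the arrays the difference of ELOF1 lay between 2.48 and 3.05.

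DSIF, the dimer of SUPT5H and SUPT4H1 that both pauses and later accompanies the polymerase, was split between its subunits. SUPT5H had a signal of 7.66 on the stretched and 6.57 on the static array, a difference of 1.09. SUPT4H1 went the other way, with 7.95 on the stretched and 8.46 on the static array, a difference of -0.51 that did not reach 1.5-fold as deposited. Neither gene came near the background range. After a loess on level the differences were 0.76 for SUPT5H and -0.80 for SUPT4H1.

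The pausing complex NELF had 2 of its 3 measured subunits just past 1.5-fold. NELFB read 5.67 on the stretched and 4.94 on the static array, a difference of 0.73. NELFCD read 6.73 on the stretched and 6.14 on the static array, a difference of 0.59. NELFA, which bridges the complex to the polymerase, read 5.11 on both. Differences of this size were common at these signals: 43.0% of genes with a mean signal from 5.00 to 5.56, the level of NELFB, and 38.4% of those from 6.22 to 7.17, the level of NELFCD, were 1.5-fold or more higher.

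HEXIM1, which together with the 7SK small nuclear RNA holds P-TEFb inactive, had the lowest difference of the 66 genes. The brighter of its probe sets read 5.47 on the stretched and 6.20 on the static array, a difference of -0.73. Its other probe set ran the opposite way, at 3.76 on the stretched and 2.88 on the static array (0.88), inside the background range on both. Averaged over both probe sets the difference was 0.08, so the direction for HEXIM1 rests on the choice of probe set. Only EXOSC10 also had more than 1 probe set, and its dimmer one read 3.23 on the stretched and 3.22 on the static array.

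Among factors that help the polymerase along, SUPT6H, a histone chaperone that travels with it, read 8.43 on the stretched and 7.84 on the static array (0.59). SUPT16H, the large subunit of the histone chaperone FACT, read 8.32 on the stretched and 7.92 on the static array (0.40). Neither reached 2-fold. The super elongation complex was represented by ELL at 3.28 on the stretched and 2.75 on the static array and by ELL3 at 2.79 on the stretched and 3.36 on the static array. These 2 relatives had differences of 0.53 and -0.57, and neither left the background range. SUPT7L and SUPT3H belong to SAGA, a histone acetyltransferase coactivator, and not to the elongation machinery. Their differences were 0.31 and -0.10.

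The RNA exosome had the highest median of the 4 groups as deposited. Its core is a ring of RNase PH-like proteins topped by a cap of RNA-binding proteins, and the RNA runs through the ring to a nuclease. All 10 EXOSC genes were measured, and as deposited all 10 were higher on the stretched array, from 0.28 for EXOSC4 to 1.68 for EXOSC8. Of the 10981 named genes past the level filter, 6953 were above 0. The nuclease DIS3, listed with the exosome cofactors, read 7.56 on the stretched and 7.63 on the static array (-0.07). DIS3 was the only 1 of the 12 measured cofactors below 0. EXOSC3 and EXOSC4 turned below 0 after quantile normalization, after a loess on level and after centring on reference genes, and EXOSC9 did after quantile normalization and centring on reference genes. All 10 reach the signal mark of 4.24, EXOSC7 on the stretched array only. At 1.5-fold 6 of the 10 were higher and at 2-fold 4 were, against 38.9% and 18.3% of named genes past that mark.

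In the ring, EXOSC8 read 6.04 on the stretched and 4.36 on the static array, a 3.20-fold difference. EXOSC5 read 8.28 on the stretched and 6.82 on the static array (1.46). EXOSC7 read 5.46 on the stretched and 4.05 on the static array (1.41). These were the 3 ring genes past 2-fold, and the static values of EXOSC8 and EXOSC7 lay within the background range while EXOSC5 was well above it on both arrays. EXOSC6 followed with 6.45 on the stretched and 5.69 on the static array (0.76). The remaining ring genes did not reach 1.5-fold, EXOSC9 with 6.32 on the stretched and 5.90 on the static array and EXOSC4 with 5.66 on the stretched and 5.38 on the static array.

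The cap spanned a similar range. EXOSC2 read 7.28 on the stretched and 5.72 on the static array, a 2.95-fold difference. EXOSC1 read 5.88 on the stretched and 5.05 on the static array (0.83). EXOSC3 read 6.13 on the stretched and 5.82 on the static array (0.31). The nuclease EXOSC10, which acts on RNA in the nucleus, stood at 7.94 on the stretched and 7.44 on the static array (0.50). Cap and ring thus each held genes past 2-fold beside genes under 1.5-fold.

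The 5 genes with the highest differences of the set that have an entry in RefSeq's promoter windows were ELOF1, EXOSC8, EXOSC2, EXOSC5 and EXOSC7. Their windows are printed because these genes carry the largest differences in the set. Each covers 250 bases before to 50 bases after the annotated start on GRCh38.p14, written 5′ to 3′ along the gene. Capitals mark matches, on either strand, to GCGCA and GCGC set 1 base apart, the type of letters bound by nuclear respiratory factor NRF1, an activator of many housekeeping promoters.
ELOF1 (chr19:11559181-11559480, minus strand): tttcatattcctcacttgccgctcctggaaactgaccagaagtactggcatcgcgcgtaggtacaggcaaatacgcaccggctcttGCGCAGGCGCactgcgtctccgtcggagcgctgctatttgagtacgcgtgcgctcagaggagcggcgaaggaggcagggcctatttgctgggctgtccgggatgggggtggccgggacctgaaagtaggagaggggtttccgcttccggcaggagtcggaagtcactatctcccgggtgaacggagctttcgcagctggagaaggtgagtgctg
EXOSC8 (chr13:37000536-37000835, plus strand): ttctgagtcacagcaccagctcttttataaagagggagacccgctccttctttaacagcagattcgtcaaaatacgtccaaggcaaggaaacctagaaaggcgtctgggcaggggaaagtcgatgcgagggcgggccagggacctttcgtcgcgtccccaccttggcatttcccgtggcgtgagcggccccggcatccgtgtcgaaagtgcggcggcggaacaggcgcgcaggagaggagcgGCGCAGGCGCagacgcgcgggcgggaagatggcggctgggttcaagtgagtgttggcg
EXOSC2 (chr9:130693510-130693809, plus strand): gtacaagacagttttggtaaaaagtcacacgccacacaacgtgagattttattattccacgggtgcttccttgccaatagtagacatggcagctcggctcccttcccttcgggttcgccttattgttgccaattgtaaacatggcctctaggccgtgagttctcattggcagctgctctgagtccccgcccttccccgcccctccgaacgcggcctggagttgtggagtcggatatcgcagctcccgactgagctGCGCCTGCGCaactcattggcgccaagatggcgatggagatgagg
EXOSC5 (chr19:41397310-41397609, minus strand): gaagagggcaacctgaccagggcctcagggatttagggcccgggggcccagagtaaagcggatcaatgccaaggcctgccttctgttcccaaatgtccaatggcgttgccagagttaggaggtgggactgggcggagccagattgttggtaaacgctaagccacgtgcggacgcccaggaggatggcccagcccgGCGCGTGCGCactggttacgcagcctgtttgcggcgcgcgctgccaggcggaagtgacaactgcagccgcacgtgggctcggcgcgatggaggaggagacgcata
EXOSC7 (chr3:44975994-44976293, plus strand): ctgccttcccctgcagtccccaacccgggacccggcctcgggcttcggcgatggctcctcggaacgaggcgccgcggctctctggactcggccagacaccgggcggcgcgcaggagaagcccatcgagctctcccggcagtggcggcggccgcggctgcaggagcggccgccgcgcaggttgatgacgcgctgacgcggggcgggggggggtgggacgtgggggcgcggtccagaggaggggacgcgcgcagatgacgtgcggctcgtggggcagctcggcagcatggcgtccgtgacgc

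The match began 164 bases before the start in ELOF1, 8 before it in EXOSC8 and 55 before it in EXOSC5, and 5 bases after it in EXOSC2. EXOSC7 holds no match in this window. RefSeq windows existed for 51 of the 66 genes, and where a gene had several the first listed was used. NRF1-type letters stood in 14 of the 51 windows (27.5%), against 6.28% of all 27305 windows and 8.79% of the 10749 windows of genes named on the array. They were in 8 of the 17 genes that were 1.5-fold or more higher and in 6 of the other 34. These genes are EXOSC2, EXOSC5, EXOSC8, ELOF1, INTS7, MED4, NELFB and NELFCD among the higher ones and INTS11, MED11, MED18, MED26, SUPT3H and SUPT4H1 among the others.

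In all 9 motifs were searched on both strands, each counted once per window whether or not it overlapped another. The ETS-type letters CCGGAA stood in 22 of the 51 windows (43.1%), against 17.6% of all windows and 23.8% of those of array genes, and they were in 5 of the 17 higher genes and in 17 of the other 34. The YY1-type letters AAGATGG stood in 12 of the 51 (23.5%), against 6.06% of all windows and 6.61% of those of array genes, and in 5 of the 17 higher genes and 7 of the other 34. The GC box GGGCGG stood in 33, or 64.7%, against 44.6% of all windows but 60.5% of those of array genes. CCAAT was in 18 (35.3%, against 35.7% of all windows and 36.0% of those of array genes). TATAAA was in 4 (7.84%, against 12.0% of all windows and 8.49% of those of array genes), and the E-box CACGTG was in 4 (7.84%, against 7.43% and 9.02%). The AP-1 type TGANTCA stood in 3 of the 51 (5.88%), against 7.76% of all windows and 5.92% of those of array genes. The TEAD type GGAATG stood in 2 (3.92%), against 14.0% of all windows and 11.7% of those of array genes. Median GC content was 61.7% in the 51 windows, 63.3% in the windows of array genes and 58.3% in all windows. It was 63.3% in the 17 higher genes and 60.1% in the other 34. The median count of C directly followed by G was 27 in the 17 and 24 in the other 34. That count was 23 in windows of array genes and 14 in all windows. A match describes letters in a window and shows no binding.

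**Figure D2:**
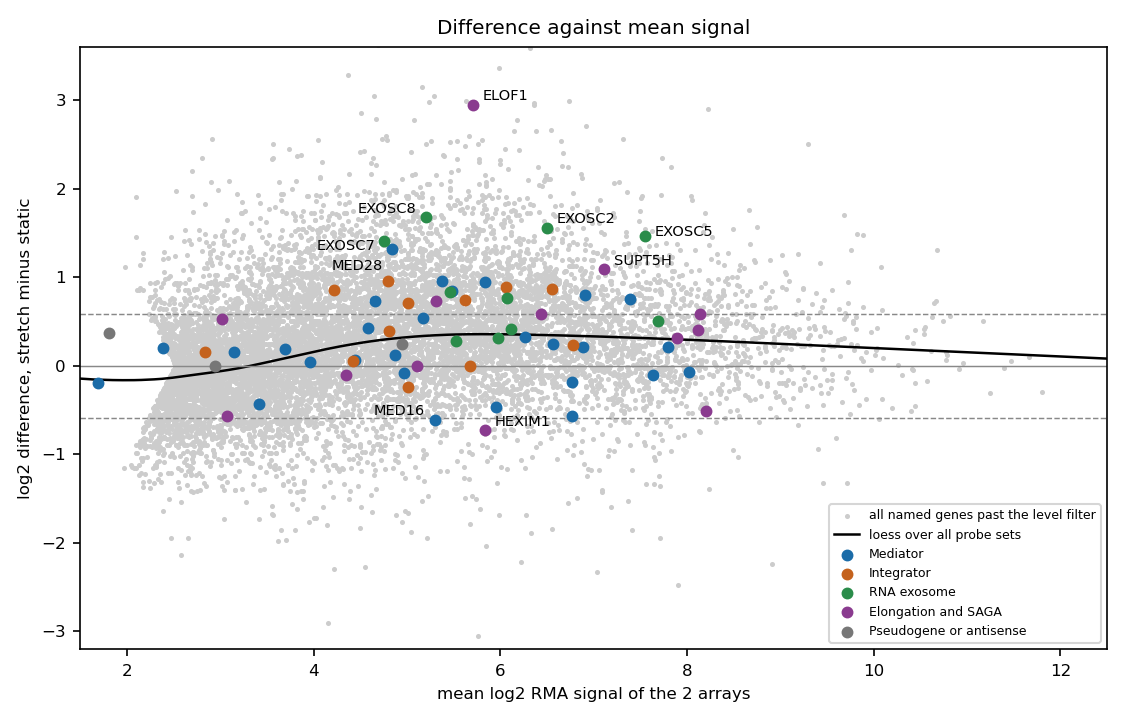
The log2 difference (y axis, stretch minus static) is plotted against the mean log2 signal of the 2 arrays (x axis) for the named genes past the level filter (grey; a few lie outside the plotted range) and for the 66 genes (coloured by complex), with dashed lines at 1.5-fold and the loess curve over all probe sets in black. ELOF1 lies at 2.95, EXOSC8, EXOSC2, EXOSC5 and EXOSC7 between 1.41 and 1.68, and HEXIM1 lowest at -0.73.

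Integrator genes were higher in 6 of 12 cases at 1.5-fold, with 0 lower and 0 at 2-fold, where all named genes past the level filter had 27.7% higher at 1.5-fold and 12.3% at 2-fold. Of the 11 Integrator genes with a value at or above 4.24, 6 were higher at 1.5-fold (54.5%), against 38.9% of named genes past that mark, and 0 at 2-fold, against 18.3%. The complex is a scaffold that joins an RNA-cutting module to a protein phosphatase module. Of the scaffold, INTS5 read 5.28 on the stretched and 4.32 on the static array (0.96), the static value within the background range. INTS1, the largest subunit, read 6.50 on the stretched and 5.61 on the static array (0.89). INTS7 read 6.99 on the stretched and 6.12 on the static array (0.87). The 3 scaffold genes were close to each other in difference, and the fourth, the PHD finger protein INTS12, read 4.44 on the stretched and 4.39 on the static array.

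The cutting module was divided. INTS9, the inactive partner of the endonuclease, read 4.65 on the stretched and 3.79 on the static array (0.86), and its static value lay within the background range. INTS11, the endonuclease itself, read 5.00 on the stretched and 4.61 on the static array (0.39). INTS4, on which both are mounted, read 4.89 on the stretched and 5.13 on the static array (-0.24) and was the only Integrator gene with a negative difference. The pseudogene INTS4P2, which resembles INTS4 in sequence so that their signals may not be separate, read 5.06 on the stretched and 4.82 on the static array.

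In the phosphatase module, INTS8 read 5.99 on the stretched and 5.25 on the static array (0.74). INTS6 read 5.67 on both, and its relative INTS6L read 2.91 on the stretched and 2.76 on the static array, in the background range. INTS10, of the auxiliary module, read 5.37 on the stretched and 4.66 on the static array (0.71). INTS3, which also forms a complex on single-stranded DNA, was at 6.89 on the stretched and 6.66 on the static array. The scaffold, the cutting module and the phosphatase module thus each held genes past 1.5-fold and genes under it.

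Mediator, with 28 measured genes, had the lowest median of the 4 groups. At 1.5-fold 7 genes were higher, 1 was lower and 20 lay between, and 19 differences were above and 9 below 0. Among all named genes past the level filter 27.7% were higher and 8.9% lower. Differences were above 0 in 6953 of those 10981 genes and below 0 in 3884. Of the 22 Mediator genes with a value at or above 4.24, 7 were higher (31.8%), against 38.9% of named genes past that mark. Differences above and below 0 occurred together in the head, the middle, the kinase module and the tail and upper part. The 1 gene lower at 1.5-fold was in the tail. The median of 0.195 over all 28 is close to the 0.20 of all named genes past the level filter. For the 22 with a value at or above 4.24 the median was 0.225, against 0.41 for named genes past that mark. At 2-fold 1 of the 22 was higher (4.55%), against 18.3%.

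MED28 had the largest difference in Mediator, with 5.50 on the stretched and 4.18 on the static array, or 2.50-fold, from a static value in the background range. Besides its place in the upper part of Mediator, the MED28 protein was described as a partner of the actin-associated tumour suppressor merlin. MED24 read 6.31 on the stretched and 5.36 on the static array (0.95). MED15, the tail subunit bound by sterol-responsive SREBP factors, read 5.02 on the stretched and 4.29 on the static array (0.73), the static value within the background range. MED16 of the same tail was the one Mediator gene past 1.5-fold in the other direction, at 4.99 on the stretched and 5.60 on the static array (-0.61). The other genes of the tail and upper part ranged from -0.43 for MED30 to 0.32 for MED23, with MED29 at 0.21 and MED27 at -0.19, and neither MED30 nor MED27 left the background range.

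The head, which contacts the polymerase, had 1 of 6 measured genes past 1.5-fold. That gene, MED8, read 5.85 on the stretched and 4.89 on the static array (0.96). MED11 lay at the other end, at 6.48 on the stretched and 7.05 on the static array (-0.57), just short of 1.5-fold. MED17, the central head subunit, read 5.44 on the stretched and 4.90 on the static array (0.54). The head genes MED18, MED20 and MED22 lay between 0.04 and 0.20.

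In the middle, which transmits contacts between head and tail, 3 of 9 genes were past 1.5-fold. MED4 read 5.90 on the stretched and 5.06 on the static array (0.84). MED10 read 7.31 on the stretched and 6.51 on the static array (0.80). MED1, the docking site of nuclear receptors, read 7.76 on the stretched and 7.01 on the static array (0.75). MED21 stood opposite to these, at 5.72 on the stretched and 6.19 on the static array (-0.47). MED26, which recruits super elongation complexes, was at 0.43, and MED7, MED9, MED19 and MED31 ranged from -0.18 to 0.19. MED14, the scaffold that runs through the whole complex, read 7.59 on the stretched and 7.69 on the static array.

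The kinase module, which binds Mediator reversibly and blocks its contact with the polymerase, had 0 of its 4 MED genes past 1.5-fold. MED13 read 7.90 on the stretched and 7.69 on the static array (0.21), MED13L 7.99 on the stretched and 8.06 on the static array (-0.07), and MED12 6.68 on the stretched and 6.44 on the static array (0.24). MED12L stood at 0.16 within the background range. The module's other subunits, taken from the partner lists, were all lower on the stretched array without reaching 1.5-fold: CDK19 read 5.45 on the stretched and 5.91 on the static array (-0.46), the kinase CDK8 6.02 on the stretched and 6.35 on the static array (-0.33), and cyclin C (CCNC) 4.02 on the stretched and 4.17 on the static array (-0.15). Cyclin C lay in the background range on both arrays. Of the 10981 named genes past the level filter, 3884 were below 0. None of the 7 genes of this module passed 1.5-fold as deposited. After a loess on level 2 of the 7, CDK8 and CDK19, were past it on the lower side. Among all named genes past the level filter 12.2% were 1.5-fold or more lower after loess, against 8.9% as deposited.

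**Figure D3:**
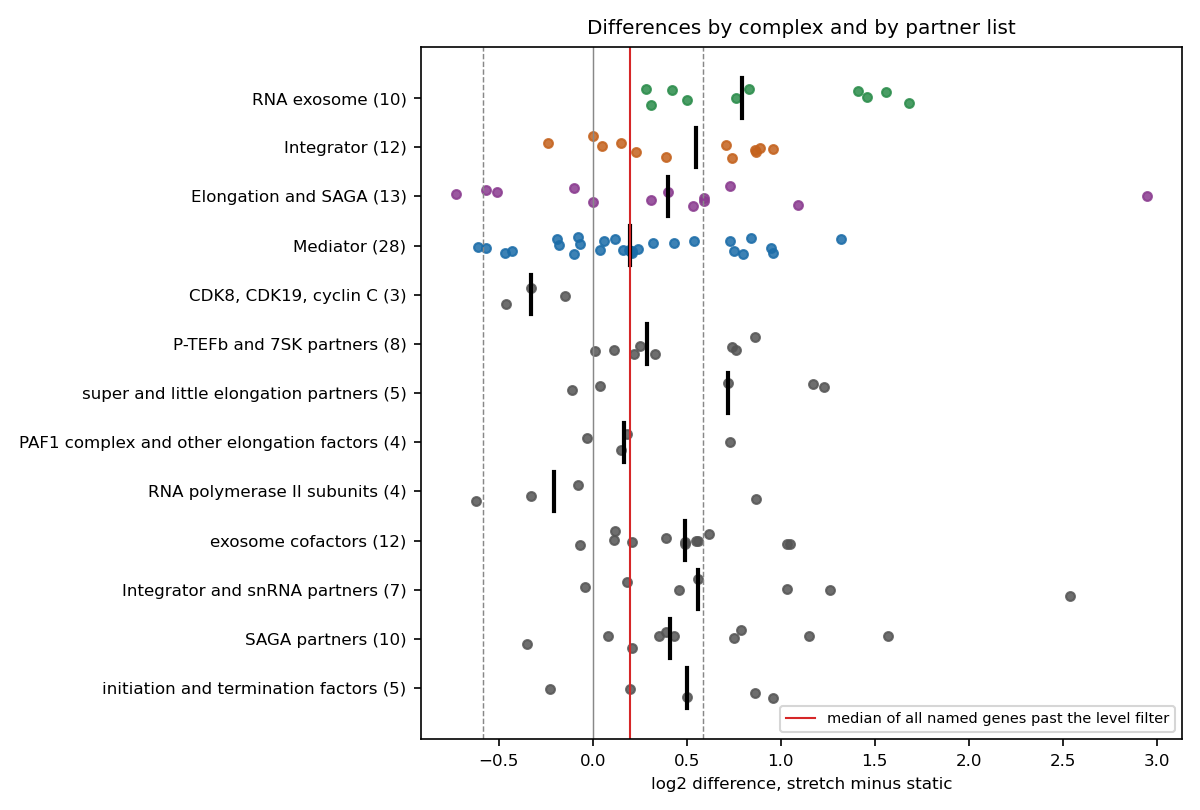
Points are the log2 differences (x axis, stretch minus static) of single genes in the 4 groups (coloured) and in 9 lists of partner genes (grey), with the number of measured genes in brackets, the list median as a black bar, 1.5-fold as dashed lines and the median of all named genes past the level filter, 0.20, in red. As deposited, the exosome has all points above 0, Mediator is centred near the red line, and CDK8, CDK19 and cyclin C lie below 0. Cyclin C was in the background range on both arrays. Of the 10981 named genes past the level filter, 6953 were above 0 and 3884 below.

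Genes that work with these complexes were read from 9 lists of partners, of which 58 genes were measured by name. Of the 58, 20 were 1.5-fold or more higher and 1 was lower. At 2-fold 9 were higher, and the median difference was 0.39. Among all named genes past the level filter 27.7% were higher at 1.5-fold, 8.9% were lower and 12.3% were higher at 2-fold. Of the 51 partner genes with a value at or above 4.24, 18 were higher at 1.5-fold (35.3%) and 7 at 2-fold (13.7%), against 38.9% and 18.3% of named genes past that mark. The counts of the single lists below stand against these same shares.

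Of the exosome cofactors 3 of 12 were past 1.5-fold, with a median of 0.49 against 0.795 for the EXOSC genes. NRDE2, a partner of the nuclear RNA helicase MTREX, read 4.13 on the stretched and 3.08 on the static array (1.05), in the background range on both. DIS3L2, a nuclease that works apart from the exosome, read 5.95 on the stretched and 4.92 on the static array (1.03). The polymerase TENT4A, which adds tails to exosome substrates, stood at 0.62. Among Integrator and small nuclear RNA partners 3 of 7 passed 2-fold, against 12.3% of all named genes past the level filter. NABP1, a single-stranded DNA-binding partner of INTS3, read 6.53 on the stretched and 3.99 on the static array (2.54), from a static value in the background range. SRRT, which couples the RNA cap to RNA processing, stood at 1.26 and COIL, the scaffold of Cajal bodies, at 1.03, each from a static value at the edge of or inside the background range.

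For elongation, 3 of 8 P-TEFb and 7SK partners were past 1.5-fold and 0 were lower: CCNT1 (cyclin T1) at 0.86, the 7SK-capping enzyme MEPCE at 0.76 and the kinase CDK12 at 0.74. Super and little elongation partners had 3 of 5 higher. ZC3H8 stood at 1.23 from a static value in the background range, ICE1 at 1.17 and EAF1 at 0.72. With both of its probe sets averaged EAF1 stood at 0.05. In the PAF1 complex and other elongation factors 1 of 4 was higher, SSRP1, the partner of SUPT16H in FACT, at 0.73. SETD2 stood at 0.18 and IWS1 at 0.15 in that list. The polymerase itself had 1 of 4 measured subunits higher, POLR2D at 0.87, and 1 lower, POLR2F at -0.62 in the background range, with POLR2G at -0.33. SAGA partners had 4 of 10 higher, led by the acetyltransferase KAT2A, which read 6.81 on the stretched and 5.24 on the static array (1.57), TADA2B at 1.15 in the background range and USP22 at 0.79. Of the initiation and termination factors 2 of 5 were higher, the nuclease XRN2 at 0.96 and TBP at 0.86, and CDK7 stood at 0.50.

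How many genes count as higher depended on the scaling of the arrays. Of the 24 genes 1.5-fold or more higher as deposited, 24 kept a positive difference under each of 4 other scalings. For the centrings on medians and on reference genes this was fixed in advance. Each moves all genes by a constant amount, too small to bring a 1.5-fold difference below 0. Only quantile normalization and loess could have changed a sign. Past 1.5-fold under all 4 scalings stayed 7 genes: ELOF1, EXOSC2, EXOSC5, EXOSC7, EXOSC8, MED28 and SUPT5H. They are the same 7 that were past 2-fold as deposited, so this list restates the deposited ranking. After quantile normalization 9 of the 24 remained past 1.5-fold, after a loess on level 11 and after centring on 15 reference genes 7. That last scaling lowers every difference by 0.47, so a difference between 0 and 0.47 has the opposite sign under it, those of EXOSC3, EXOSC4 and EXOSC9 and the medians of Mediator (-0.28) and of the elongation and SAGA genes (-0.07) included. The 0.47 is the mean difference of the 15 reference genes, which themselves ranged from -0.57 to 1.72. Of these 15, 6 were 1.5-fold or more higher and 0 lower. The exosome median stayed positive, at 0.44 after loess and 0.32 after centring on reference genes, and the Mediator median was -0.06 after loess. The median of all named genes past the level filter was 0.04 after loess and -0.27 after centring on reference genes. MED16 was lower under all 4, at -0.51 to -1.08, and past 1.5-fold in all but the centring on medians. Neither centring could have raised MED16 above 0.

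**Figure D4:**
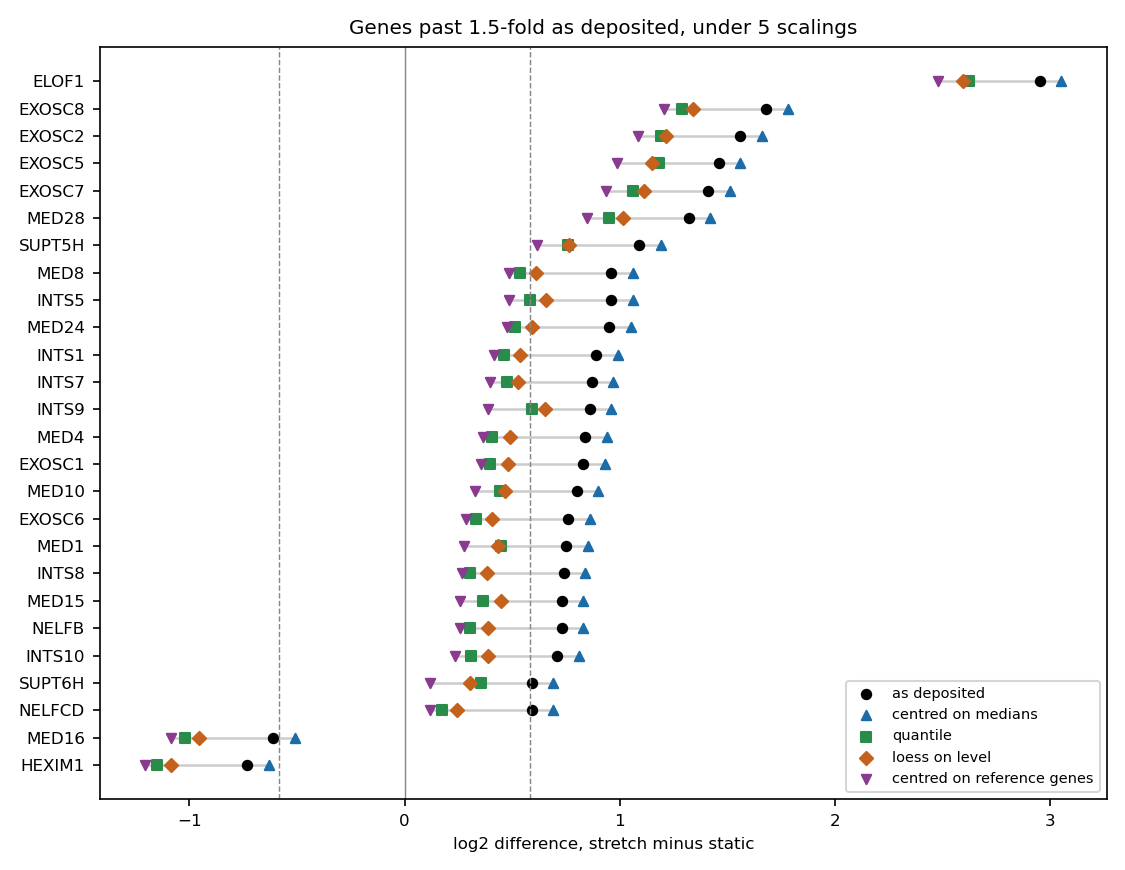
For the 26 genes past 1.5-fold as deposited, the log2 difference (x axis, stretch minus static) is shown as deposited (circle) and under 4 other scalings, with dashed lines at 1.5-fold and grey bars spanning the range. ELOF1 stays between 2.48 and 3.05, whereas SUPT6H and NELFCD stand at 0.12 when the arrays are centred on reference genes.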

How the data were processed

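Expression was measured on 1 Affymetrix array per condition, grouped by source name. The authors deposited log2 RMA values for 53617 probe sets, per the submitters' processing notes (the log2 scale follows from their range). The sources used here name no software, chip definition or genome build. RMA normally equalises arrays, yet the deposited medians are 2.47 for the stretched and 2.57 for the static array, so how the arrays were brought to a common scale stays unknown. RMA compresses low signals.

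Of the probe sets, 16098 have 1 symbol in the platform annotation, 0 have several and 37519 are unnamed here; all 16098 symbols match those of NCBI RefSeq (GRCh38.p14) by gene identifier. The probe set with the highest mean stood for a gene. Alternatives were the mean of all probe sets, 3 other level filters, the mean in place of the median, and 4 scalings: centring on medians, quantile, loess (span 0.3) and centring on 15 reference genes. Functions were tested on simulated data. Every gene the symbol rule finds is named. Of partner lists, at most the 3 largest differences per list are named, and also DIS3, CDK8, CDK19 and cyclin C. Genes, lists and motifs were chosen with earlier results of these data known. Python 3.11.15, numpy 2.4.6, pandas 2.3.3, statsmodels 0.14.6 and matplotlib 3.10.9 were used.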

Additional observations from a re-analysis of the deposited data

How the results depend on the processing

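The count of genes 1.5-fold or more higher on the stretched array was 24 as deposited, 27 after centring on medians, 9 after quantile normalization, 12 after a loess on level and 7 after centring on reference genes. Among all named genes past the level filter the share was 27.7% as deposited, 16.5% after quantile normalization, 18.5% after loess and 10.7% after centring on reference genes. The count 1.5-fold or more lower was 2 as deposited, 1 with all probe sets averaged and 1 after centring on medians. It was 7 after quantile normalization, 5 after loess and 9 after centring on reference genes. Those 3 counts are 11.1%, 7.94% and 14.3% of the 63 genes past the level filter. Of all named genes past that filter, 14.1%, 12.2% and 28.5% were lower under the same scalings. As deposited the share of all named genes was 8.9%, and after centring on medians it was 6.41%. At 2-fold, 7 genes were higher as deposited and 10 after centring on medians. There were 5 after quantile normalization, 6 after loess and 3 after centring on reference genes. Of all named genes past the level filter 12.3% were 2-fold or more higher as deposited and 15.4% after centring on medians. Their share was 6.45% after quantile normalization, 7.2% after loess and 4.19% after centring on reference genes. The median difference of the 63 genes past the level filter was 0.32 as deposited, and the mean was 0.42. Their median was 0.07 after quantile normalization, 0.10 after loess and -0.15 after centring on reference genes. For all named genes past that filter the median under these 3 scalings was -0.01, 0.04 and -0.27. As deposited it was 0.20, with a mean of 0.25. All 4 scalings shift the arrays by construction. The level filters left the counts of 24, 2 and 7 as they were. A gene passes by its higher value, which favours large differences, so these counts could hardly fall. The share of all named genes did move. At 1.5-fold higher it was 20.7% without a filter and 39.2% at the background bound, and at 2-fold 9.07% and 18.6%. With both probe sets averaged, HEXIM1 stood at 0.08 in place of -0.73. No paired analysis was possible because each condition has 1 array. RMA values carry no detection call, and 11 genes lay in the background range on both arrays. Their differences cannot be told from noise at low signal. With 1 array per condition there is no measure of noise for the other genes either.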
